A study of Homo sapiens with 6 samples.

Results

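The 9 genes described here encode inhibitors of mTORC1, the kinase complex that couples growth to nutrients and stress: the sestrins SESN1, SESN2 and SESN3, DDIT4 (REDD1), DEPTOR, the tuberous sclerosis genes TSC1 and TSC2, and DEPDC5 and NPRL2. They were chosen by name from the 60643 rows of the table, each symbol matched a single row, and all 9 were among the 14475 genes tested. HCT116 is an established human colorectal cancer line, labelled as human colon cancer cells with rectum as the tissue. All 6 libraries came from cells transfected with shCAPG, an inducible short hairpin RNA against CAPG, an actin filament capping protein. The 3 untreated libraries (shCAPG_-Dox, genotype label WT) were compared with 3 libraries (shCAPG_+Dox, genotype label CAPG Knockdown) from cells given doxycycline at 100 ng per µl, the unit as labelled, for 3 days. The sample descriptions name the hairpin shCAPG-2, and no other hairpin was analysed here. Libraries given doxycycline without the hairpin were not analysed here, so the drug and the knockdown cannot be told apart. The labels do not say whether replicates were separate cultures, so each p-value reflects the spread of these libraries alone and that spread may be technical.

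mTORC1 is switched on at the lysosome when Rag GTPases recruit it and the GTPase RHEB activates it. TSC1 and TSC2 form the complex that turns RHEB off, and DDIT4 acts through that complex when oxygen or energy is short. DEPDC5 and NPRL2 are subunits of GATOR1, which turns the Rag GTPases off when amino acids run low, and sestrins restrain its antagonist GATOR2, SESN2 as a leucine sensor. DEPTOR binds the mTOR kinase itself. SESN2 and DDIT4 are known targets of the stress transcription factor ATF4, SESN1 and SESN2 of p53, SESN1 and SESN3 of FOXO factors, and DDIT4 also of hypoxia-inducible factors.

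CAPG fell in the treated cells to 15.3% of its untreated level (limma log2 change -2.59, adjusted p = 7.24e-06), with 53.7 to 61.1 FPKM without and 8.03 to 9.97 FPKM with doxycycline, matching the labels in each library. The estimated depth was about 13800000 to 18100000 fragments per library, lowest in untreated replicate 3. FPKM values (fragments scaled to transcript length and library depth) summed to 521832 to 536037 in 5 libraries and to 586911 in treated replicate 3. Epithelial markers were high, with EPCAM at 190 and 241 FPKM and KRT8 at 628 and 727 FPKM as untreated and treated means, whereas KRT20 and VIL1 stayed under 1 FPKM. Of 6 fibroblast markers 2 were listed at 0 in every library (COL1A2 and DCN), and the list summed to 7.97 to 11.3 FPKM without and 7.58 to 9.80 with doxycycline, mostly COL1A1. Of 7 leukocyte markers CD3E and MS4A1 were at 0 throughout, and the list summed to 4.40 to 5.17 and 2.59 to 2.77 FPKM, mostly the lysosomal protein gene CD68. The 5 endothelial markers summed to at most 0.595 FPKM. Of these lists EPCAM rose and CD68 fell (limma adjusted p = 0.0401 and 0.0167), and their part in the results was not tested. With single libraries left out, EPCAM kept its call only without treated replicate 3 (adjusted p up to 0.139), and CD68 lost it without untreated replicate 2 or treated replicate 2 (up to 0.0762).

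Among the mTORC1 inhibitors, SESN2 rose and DDIT4 and DEPTOR fell with doxycycline. The other 6 genes did not pass the test. This was 1 of 9 higher and 2 of 9 lower by limma (adjusted p under 0.05), beside 3.69% called higher and 4.77% called lower among the 14475 genes, 8.46% together. The median log2 change of the 9 was 0.02, and that of all tested genes was -0.0026. Groups did not overlap in 5 of the 9 genes (SESN2, SESN3, DDIT4, DEPTOR and DEPDC5), against 34.5% of all tested genes. Fold changes below were computed after adding 1 FPKM, so those of weakly expressed genes come out too small. In bulk RNA, fewer cells expressing a gene and less of its RNA per cell cannot be told apart.

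**Figure D1:**
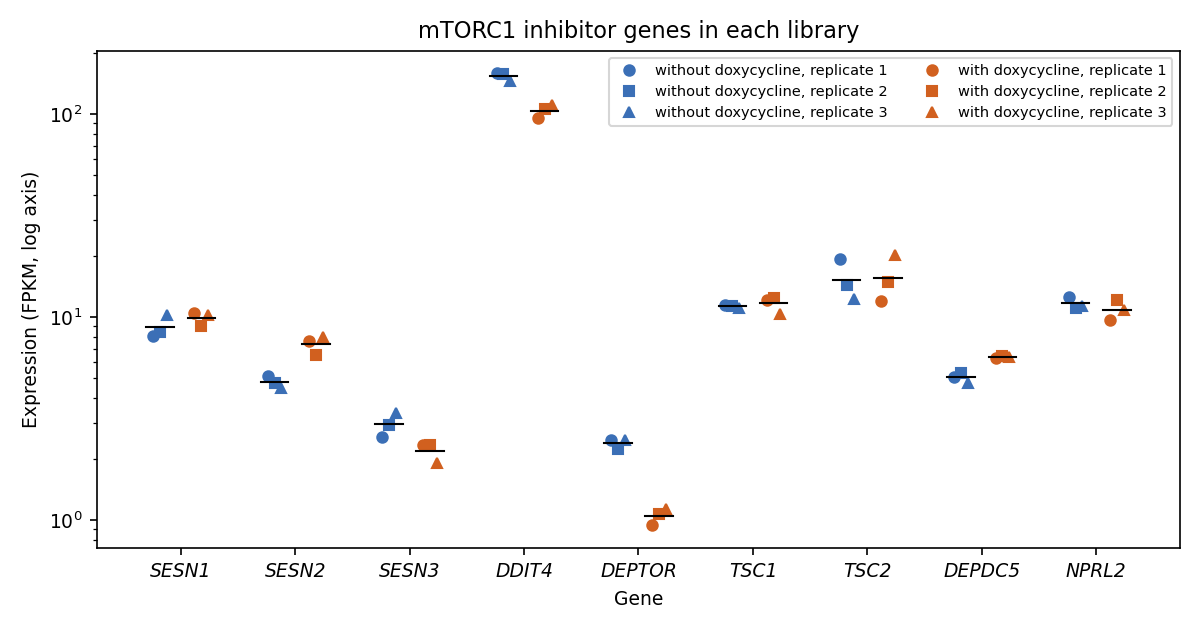
Expression of the 9 genes in FPKM (log axis) in each library, with a symbol per replicate and a bar at each group mean (n = 3). DDIT4 lies between 95.6 and 159 FPKM, and the next highest gene, TSC2, between 11.9 and 20.2 FPKM.

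DDIT4 was by far the most abundant of the 9 at the level of RNA per length. Its untreated mean was 10.1 times that of TSC2, the next gene in order, and its treated mean was 6.65 times that of TSC2. Below it came TSC2, NPRL2 and TSC1, whose untreated ranges overlapped between neighbours in that order. SESN1 followed, then DEPDC5 and SESN2, which overlapped without doxycycline, then SESN3, and DEPTOR was lowest. With doxycycline TSC2, TSC1, NPRL2 and SESN1 overlapped between neighbours, and SESN2 lay above DEPDC5 with no overlap.

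The sequences before the start sites of SESN2 and DDIT4 are shown because these stress-induced genes moved in opposite directions while sharing ATF4 as an inducer. TSC2 is shown as the only one of the matched genes with the ATF4 and CHOP element in this window. RefSeq start sites (GRCh38.p14) were found for 8 of the 9 genes, in 13 windows of 250 bases before the start, and not for DEPTOR. Capitals mark TGATGNAA (the ATF4 and CHOP element), ACGTG (the core of the hypoxia response element) and CCAAT (the CCAAT box), searched on both strands. The windows are chr1:28259268-28259517 (plus strand), chr10:72273674-72273923 (plus strand) and chr16:2047735-2047984 (plus strand), each written 5′ to 3′.
SESN2: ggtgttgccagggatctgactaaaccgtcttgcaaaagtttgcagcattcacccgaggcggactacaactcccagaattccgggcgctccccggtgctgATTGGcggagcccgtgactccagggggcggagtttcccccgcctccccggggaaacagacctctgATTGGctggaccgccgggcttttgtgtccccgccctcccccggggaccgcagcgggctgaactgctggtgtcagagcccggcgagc
DDIT4: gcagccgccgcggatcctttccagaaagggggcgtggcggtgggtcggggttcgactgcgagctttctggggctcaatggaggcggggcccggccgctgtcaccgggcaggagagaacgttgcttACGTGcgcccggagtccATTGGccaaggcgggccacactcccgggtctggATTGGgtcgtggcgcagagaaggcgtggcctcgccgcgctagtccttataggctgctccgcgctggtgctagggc
TSC2: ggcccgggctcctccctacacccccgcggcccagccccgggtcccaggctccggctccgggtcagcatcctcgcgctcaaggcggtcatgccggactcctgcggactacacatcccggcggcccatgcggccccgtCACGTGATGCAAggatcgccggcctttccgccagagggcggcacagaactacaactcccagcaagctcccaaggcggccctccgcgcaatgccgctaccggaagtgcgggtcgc
SESN2 held 2 CCAAT boxes, 151 to 147 and 86 to 82 bases before the start, and neither of the other motifs. DDIT4 also held 2 CCAAT boxes (108 to 104 and 75 to 71) and 1 ACGTG, which ends 121 bases before the start. TSC2 held 1 TGATGNAA (110 to 103), which overlaps by its first 2 bases an ACGTG read on both strands, as part of CACGTG. Of the 13 windows 1 held TGATGNAA, 2 held ACGTG and 5 held CCAAT, the other CCAAT matches being in 2 windows of SESN1 and 1 of NPRL2. Among all 35116 RefSeq windows of this length 3.14%, 18.5% and 32% held these motifs. Windows of 1 gene can overlap and are not independent. A match describes letters in this window and is no evidence of binding.

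SESN2 (ENSG00000130766, chromosome 1, 28259518 to 28282491, GRCh38) encodes the leucine-binding sestrin. It was at 5.14, 4.75 and 4.47 FPKM in untreated replicates 1 to 3 and at 7.65, 6.51 and 7.94 FPKM in treated replicates 1 to 3. Every treated library was above every untreated one, with treated replicate 2 nearest to the untreated group. The mean went from 4.79 ± 0.339 to 7.37 ± 0.753 FPKM (SD, n = 3 each), 53.9% higher. The log2 change was 0.53 (SE 0.11, 95% interval 0.29 to 0.77, limma adjusted p = 0.0216). The call was lost without untreated replicate 2 (adjusted p = 0.0894), without untreated replicate 3 (0.0560) and without treated replicate 1 (0.0615). It was also lost with no filter on low genes (0.0816) and with replicate number as a further term in the fit. The log2 change stayed between 0.48 and 0.61 in the 6 fits that left out a library.

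SESN1 (ENSG00000080546, chromosome 6, 108986437 to 109094819), the sestrin first described as a p53 target, was at 8.05, 8.44 and 10.2 FPKM without and at 10.5, 9.09 and 10.2 FPKM with doxycycline. The groups overlapped, with untreated replicate 3 above treated replicate 2. The gene AL390208.1 overlaps it by 644 bases on the opposite strand (0.134 to 1.05 FPKM). The log2 change of SESN1, 0.15, had a 95% interval of -0.10 to 0.40 (limma adjusted p = 0.421). SESN3 (ENSG00000149212, chromosome 11, 95165513 to 95232541), the sestrin tied to FOXO factors, was at 2.56, 2.95 and 3.38 FPKM without and at 2.35, 2.35 and 1.90 FPKM with doxycycline. Its groups did not overlap, with treated values below untreated ones, but the change of -0.31 (95% interval -0.59 to -0.03) did not pass the adjusted test (limma adjusted p = 0.146). AP000787.1, on the opposite strand, spans the 67029 bases of SESN3 at 0.469 to 1.14 FPKM, so the SESN3 level is uncertain.

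Since FPKM is per length, the 3 sestrin paralogs can be summed, and the share of each is given here. None of the differences in share passed an adjusted test, and none could. With 3 libraries a group the exact permutation p cannot go below 0.1, so the test cannot decide on them. SESN2 made up 32.7%, 29.4% and 24.8% of summed sestrin FPKM in the untreated libraries and 37.4%, 36.3% and 39.6% in the treated ones. SESN3 made up 16.3%, 18.3% and 18.7% and then 11.4%, 13.1% and 9.49%. The uncertainty of the SESN3 level given above carries over to all shares and to the sum. SESN1 was the most abundant paralog in each library, at 50.6% to 56.5%. The mean SESN2 share was 8.80 percentage points higher and the mean SESN3 share differed by -6.41 points, each without overlap (two-sided exact permutation p = 0.1, the lower limit with 3 libraries a group). The summed level was 16.6 ± 1.22 FPKM without and 19.5 ± 1.36 FPKM with doxycycline (SD, n = 3 each, exact permutation p = 0.2), and untreated replicate 3 (18.0 FPKM) overlapped treated replicate 2 (17.9 FPKM). The SESN2 share rests on the SESN2 values already described and is not separate evidence. With 5 such tests computed, the ratio of DDIT4 to SESN2 among them, the Benjamini-Hochberg values were 0.167 for the SESN2 and SESN3 shares and 0.2 for the SESN1 share and the sum, by exact permutation.

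**Figure D2:**
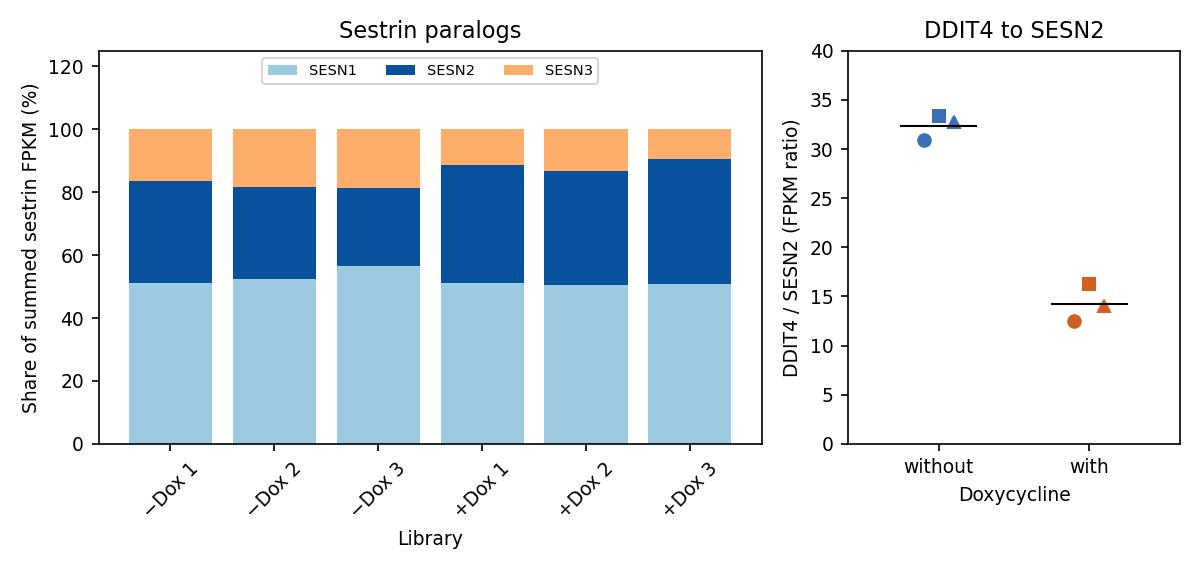
Left, share of summed sestrin FPKM (%) taken by each paralog in each library (−Dox without, +Dox with doxycycline). Right, the ratio of DDIT4 to SESN2 in FPKM per library with group means as bars (n = 3); it lies at 30.9 to 33.4 without and at 12.5 to 16.3 with doxycycline.

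DDIT4 (ENSG00000168209, chromosome 10, 72273924 to 72276036) encodes REDD1, which acts through TSC2. It was at 159, 159 and 147 FPKM in untreated replicates 1 to 3 and at 95.6, 106 and 111 FPKM in treated replicates 1 to 3. No treated library came near the untreated range. The mean of 155 ± 7.04 FPKM fell by 32.6% to 104 ± 7.86 FPKM (SD, n = 3 each), a log2 change of -0.57 (SE 0.08, 95% interval -0.75 to -0.38, limma adjusted p = 0.00696). Leaving out any of the 6 libraries kept the call (adjusted p 0.0072 to 0.0424), and testing with no filter on low genes lost it (0.0506). The antisense gene DDIT4-AS1 overlaps DDIT4 over 1066 bases, and the sources used here do not give strandedness. DDIT4-AS1 was listed at no more than 1.98e-06 FPKM in any library.

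The ratio of DDIT4 to SESN2 within a library does not depend on how libraries are scaled. It was 30.9, 33.4 and 32.8 without doxycycline and 12.5, 16.3 and 14.0 with it. The mean log2 ratio differed by -1.19 between the groups. Its two-sided exact permutation p was 0.1, the lower limit with 3 libraries a group (Benjamini-Hochberg 0.167 over the 5 tests named above). The pair was chosen with the opposite changes of the 2 genes known, so the ratio restates them and is no separate evidence.

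DEPTOR (ENSG00000155792, chromosome 8, 119873717 to 120050918) encodes the mTOR-binding inhibitor found in both mTOR complexes. It was at 2.49, 2.24 and 2.47 FPKM without and at 0.943, 1.07 and 1.14 FPKM with doxycycline. The groups were far apart compared with their spread. The mean of 2.40 ± 0.139 FPKM fell by 56.2% to 1.05 ± 0.0990 FPKM (SD, n = 3 each), the largest relative change of the 9. The log2 change was -0.73 (SE 0.12, 95% interval -0.99 to -0.47, limma adjusted p = 0.00931), and leaving out any of the 6 libraries kept the call (0.0184 to 0.0411). With replicate number as a further term in the fit, DEPTOR lost its call (limma adjusted p = 0.0529). At this low level the offset matters, and the log2 change was -1.12 with 0.1 and -1.19 with 0.01 added in place of 1. The estimated depth puts DEPTOR at about 17.1 to 44.3 fragments per kilobase of transcript, the fewest of the 9 genes, and 5 of its 6 values reached the 1 FPKM used as the filter.

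TSC1 and TSC2 encode hamartin and tuberin, the scaffold and the RHEB-inactivating subunit of the TSC complex. TSC1 (ENSG00000165699, chromosome 9, 132891348 to 132946874) was at 11.4, 11.4 and 11.04 FPKM without and at 12.2, 12.5 and 10.3 FPKM with doxycycline. Treated replicate 3 lay below all untreated libraries and the other treated libraries above them. The change was 0.04 (95% interval -0.18 to 0.26, limma adjusted p = 0.829). TSC2 (ENSG00000103197, chromosome 16, 2047967 to 2089491) was at 19.3, 14.4 and 12.3 FPKM without and at 11.9, 14.9 and 20.2 FPKM with doxycycline. Each group held high and low libraries, and the change of 0.02 had a wide 95% interval, -0.43 to 0.48 (adjusted p = 0.952). With equal library sums the sign of both changes turned (-0.010 for TSC1 and -0.027 for TSC2), as it did without treated replicate 2 for TSC1 (-0.0074) and without untreated replicate 2 (-0.0067), untreated replicate 3 (-0.11) or treated replicate 3 (-0.16) for TSC2.

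The spread of TSC2 was the widest of the 9 genes, with a coefficient of variation of 23.7% without and 26.7% with doxycycline. The highest libraries, untreated replicate 1 and treated replicate 3, were also the highest on the second principal component of all tested genes (14.1 and 17.2, with the others between -13.1 and 2.60). Whether TSC2 and that component share a cause was not tested. The 3′ end of TSC2 overlaps the oppositely transcribed PKD1 over 784 bases, and PKD1 was itself at 10.9 to 18.2 FPKM, so with strandedness not given the TSC2 level is uncertain.

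**Figure D3:**
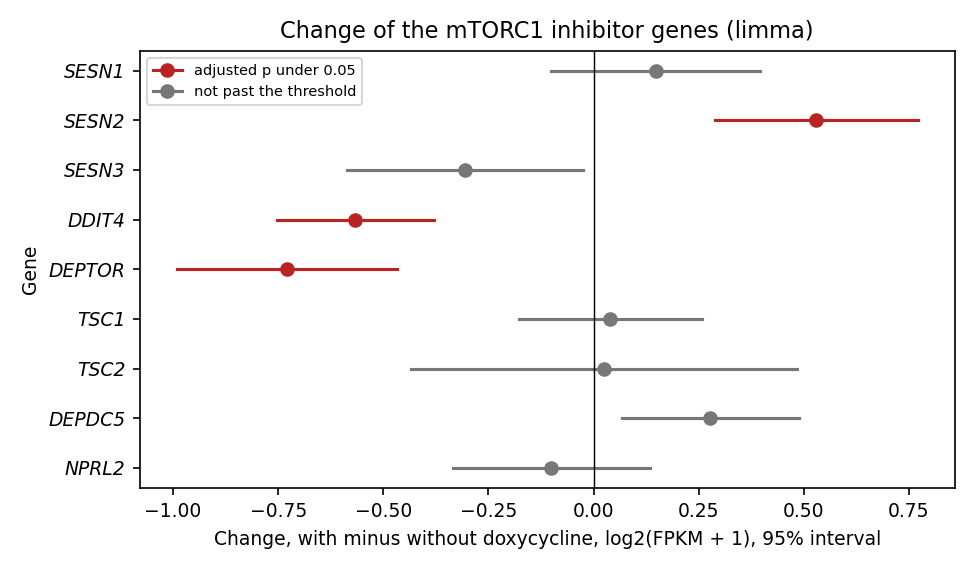
Change of each gene with against without doxycycline on the log2(FPKM + 1) scale, with 95% intervals from limma (n = 3 libraries per group). The intervals of SESN2, DDIT4 and DEPTOR lie farthest from 0, and that of TSC2 is the widest.

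DEPDC5 and NPRL2 encode GATOR1 subunits, DEPDC5 the largest of them and NPRL2 the one that carries its catalytic residue. DEPDC5 (ENSG00000100150, chromosome 22, 31753867 to 31908033) was at 5.08, 5.32 and 4.76 FPKM without and at 6.26, 6.41 and 6.32 FPKM with doxycycline. The treated libraries lay close together and all above the untreated ones, with means of 5.05 ± 0.279 and 6.33 ± 0.0755 FPKM (SD, n = 3 each). The log2 change of 0.28 (95% interval 0.07 to 0.49) did not pass the adjusted test (limma adjusted p = 0.0932, and 0.0556 to 0.228 over the alternatives). The gene Z82190.2 overlaps DEPDC5 over 153135 bases on the same strand and was listed at no more than 2.71e-39 FPKM. How reads were split between them is not known, so the DEPDC5 level is uncertain. NPRL2 (ENSG00000114388, chromosome 3, 50347330 to 50350826) was at 12.5, 11.1 and 11.4 FPKM without and at 9.65, 12.1 and 10.8 FPKM with doxycycline. The groups overlapped, and the change was -0.10 (95% interval -0.34 to 0.13, adjusted p = 0.572). NPRL3, the remaining GATOR1 subunit, had means of 4.67 and 5.23 FPKM (log2 0.13, adjusted p = 0.499). The ratio of NPRL2 to DEPDC5 was 2.47, 2.09 and 2.39 without and 1.54, 1.89 and 1.71 with doxycycline, given here without a test.

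Most other genes of the pathway did not pass the test. Across 7 lists of mTORC1 pathway genes (83 genes, 78 tested) 3 rose and 6 fell, 11.5% of those tested beside 8.46% of all tested genes, and the median log2 change was 0.02. These counts depended on the libraries: with 1 library left out, 1 to 2 genes were called higher and 0 to 4 lower. The lower count was 0 without untreated replicate 2, 2 without treated replicate 1 or 2, and 3 without untreated replicate 1 or 3. The higher count was 1 without untreated replicate 2 or 3 or treated replicate 2. With no filter on low genes none of the 78 passed. An unadjusted limma p under 0.05 was found for 4036 of all 14475 tested genes. Such genes were 1 of 12 for amino acid sensing, 6 of 13 for Rag, Ragulator and folliculin and 0 of 9 for mTOR complexes. They were 3 of 11 for PI3K, AKT, TSC and RHEB, and 2 of 11 for AMPK and LKB1. They were 6 of 17 for effectors and 4 of 5 for other stress-induced restraints. The lists were written with earlier results of these data known and are descriptions.

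Among the amino acid sensing genes, GATOR2, KICSTOR and the sensors, 0 of 12 tested passed in limma. An unadjusted p under 0.05 was found for 1 of them, beside 4036 of all 14475 tested genes. SEC13, a GATOR2 subunit that also serves vesicle coats, was at 60.8 and 72.5 FPKM (limma adjusted p = 0.155), and KICS2 of KICSTOR at 3.73 and 3.17 FPKM (0.329). CASTOR1, the arginine sensor that restrains GATOR2, missed the filter of 1 FPKM in 3 libraries and was looked at after its values were seen. It was at 1.13, 0.930 and 0.897 FPKM without and at 0.340, 0.356 and 0.211 FPKM with doxycycline, with no overlap. With the filter lowered to 0.1 FPKM its log2 change was -0.61 (limma adjusted p = 0.0313), and with no filter the adjusted p was 0.0697.

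Of 13 tested Rag, Ragulator and folliculin genes 1 fell and 0 rose. RRAGA encodes RagA, a GTPase that recruits mTORC1 to the lysosome. It was at 34.5, 33.5 and 30.9 FPKM without and at 19.9, 22.1 and 24.2 FPKM with doxycycline, without overlap. Its log2 change was -0.56 (limma adjusted p = 0.0117, and 0.0591 without untreated replicate 2). Of 9 tested genes of the mTOR complexes 0 passed in limma, 0 also at an unadjusted p under 0.05, and TTI1 (11.6 and 10.1 FPKM, adjusted p = 0.238) and TELO2 (12.6 and 10.4 FPKM, 0.292), which help assemble mTOR, had the smallest p-values of that list.

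Of 11 tested PI3K, AKT, TSC and RHEB genes the kinase gene AKT2 fell (31.1 to 23.3 FPKM, log2 -0.40, limma adjusted p = 0.0436) and 0 rose. When single libraries were left out, the AKT2 call held only without untreated replicate 3 (adjusted p up to 0.167 otherwise). Of 11 tested AMPK and LKB1 genes, the LKB1 partner gene CAB39L rose (1.65 to 2.78 FPKM, log2 0.51, adjusted p = 0.0243) and the pseudokinase gene STRADB fell (9.32 to 5.85 FPKM, log2 -0.61, 0.0281). CAB39L kept its call only without treated replicate 3 and STRADB only without treated replicate 2 (adjusted p up to 0.101 and 0.0957 without another library).

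Of 17 tested mTORC1 effectors 2 fell and 0 rose. EIF4EBP2, a translation repressor that mTORC1 phosphorylates, went from 25.2 ± 0.573 to 18.9 ± 0.731 FPKM (SD, n = 3 each; log2 -0.40, limma adjusted p = 0.0203). PDCD4, a translation inhibitor degraded after S6 kinase activity, went from 37.4 ± 1.71 to 28.0 ± 1.66 FPKM (log2 -0.41, adjusted p = 0.0215). EIF4EBP2 lost its call without untreated replicate 2, treated replicate 1 or treated replicate 2 (adjusted p up to 0.0973). PDCD4 lost it without untreated replicate 2, untreated replicate 3 or treated replicate 2 (up to 0.0909).

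Other stress-induced restraints of AKT or mTORC1 moved both ways. Of 5 tested, 2 rose, the gene of the AKT-binding pseudokinase TRIB3 (11.7 to 20.2 FPKM, log2 0.74, limma adjusted p = 0.00617) and PHLDA3 (12.02 to 18.5 FPKM, log2 0.58, 0.0303), and BNIP3, a RHEB-binding mitochondrial protein gene, fell (42.1 to 33.4 FPKM, log2 -0.33, 0.0328). TRIB3 kept its call whichever library was left out, PHLDA3 only without untreated replicate 1 and treated replicate 1, and BNIP3 only without treated replicate 3 (adjusted p up to 0.0916 and 0.108). TXNIP, a partner of REDD1, was listed at 0 in 5 libraries and at 0.0173 FPKM in treated replicate 2.

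**Figure D4:**
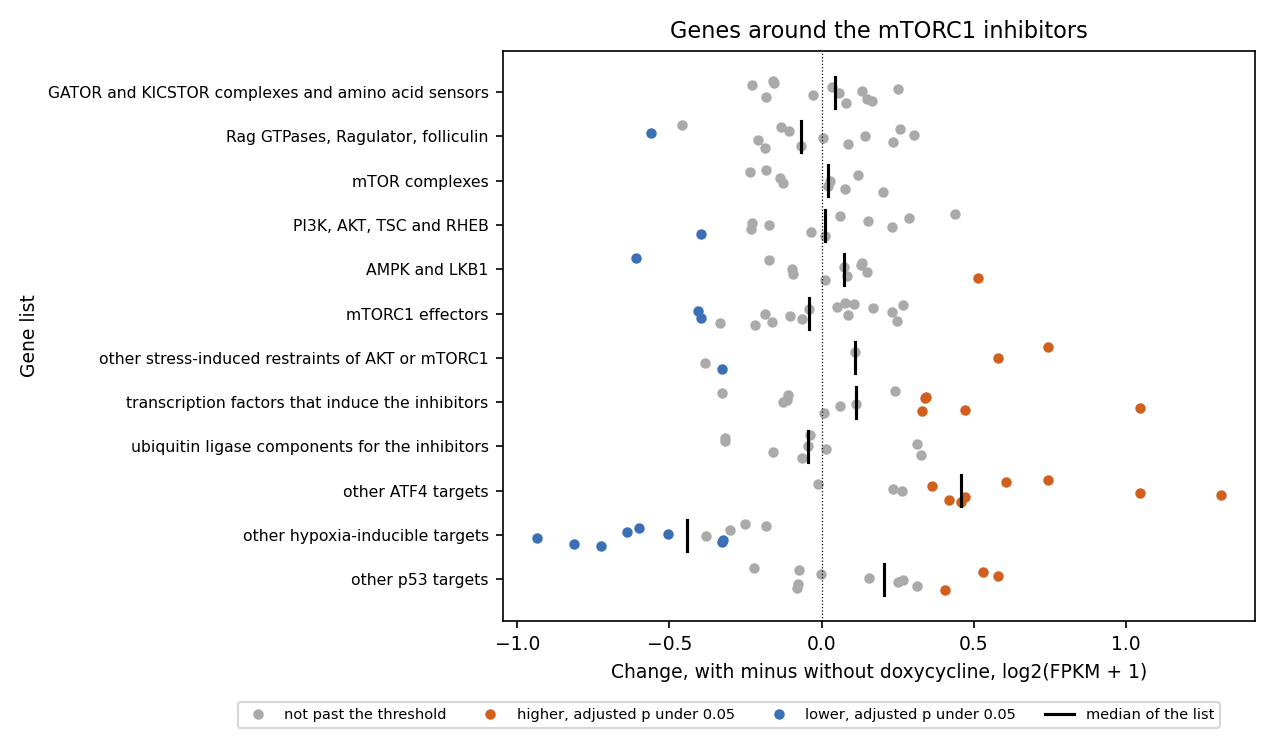
Log2 change of each tested gene in 12 lists around the mTORC1 inhibitors, colored by call, with the median of each list as a bar. The medians of the 7 pathway lists at the top lie between -0.07 and 0.11, that of the ATF4 targets at 0.46 and that of the hypoxia targets at -0.44.

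Known inducers of the 9 genes rose in part at the level of their own RNA. Of 13 tested, 5 rose and 0 fell: DDIT3 (CHOP, log2 1.05), CEBPB (log2 0.47), NFE2L2 (NRF2, log2 0.34), HIF1A (log2 0.34) and ATF4 (log2 0.33), with limma adjusted p of 0.00228, 0.0292, 0.0308, 0.0310 and 0.0479. HIF1A was at 46.1 ± 1.24 FPKM without and 58.8 ± 3.63 FPKM with doxycycline (SD, n = 3 each). DDIT3 kept its call whichever of the 6 libraries was left out. CEBPB and NFE2L2 kept it in 2 such fits, CEBPB without untreated replicate 1 or treated replicate 1 and NFE2L2 without treated replicate 1 or 3. HIF1A kept it only without treated replicate 3 and ATF4 in 0 of 6 (adjusted p up to 0.186), and HIF1A also missed the threshold under equal sums and quantile normalization.

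The targets that share an inducer with SESN2 and DDIT4 went in different directions. Of 11 tested ATF4 targets other than SESN2 and DDIT4, 8 rose and 0 fell, among them CHAC1, DDIT3, TRIB3 and ASNS, with a median log2 change of 0.46 (3 to 6 called with 1 library left out, fewest without untreated replicate 2). Of 12 tested hypoxia-inducible targets, 8 fell and 0 rose, among them ADM, NDRG1, ANKRD37 and CA9, with a median of -0.44 (4 to 7 called with 1 library left out, again fewest without untreated replicate 2). Among all tested genes 3.69% were called higher and 4.77% lower. The change of SESN2 (0.53) had the sign of the first list. That of DDIT4 (-0.57), itself a known ATF4 target, had the sign of the second list and not of the first. Of 12 tested p53 targets 3 rose (PHLDA3, TIGAR and AEN) and 0 fell, with a median of 0.20, which also has the sign of SESN2. That count was 0 to 2 with 1 library left out: 0 without untreated replicate 2, treated replicate 2 or treated replicate 3, 1 without untreated replicate 3 or treated replicate 1, and 2 without untreated replicate 1. It was also 0 with the filter at 0.1 FPKM or with none. The lists share genes (TRIB3, DDIT3, CEBPB, BNIP3 and PHLDA3 stand in more than 1), and being written with earlier results known they are no independent evidence. Which factor, if any, set the level of SESN2 or DDIT4 was not tested.

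Of 9 tested ubiquitin ligase components known for these inhibitors 0 passed in limma. An unadjusted p under 0.05 was found for 3 of them, beside 4036 of all 14475 tested genes. CUL3, the cullin that works with the DEPDC5 adaptor KLHL22, was at 36.0 and 45.5 FPKM (limma adjusted p = 0.0690), and KLHL22 itself at 7.83 and 6.12 FPKM (0.135).

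The genes most like DDIT4 and SESN2 across the 6 libraries were ranked by the root mean square difference of log2(FPKM + 1) after centring each gene, over 13174 tested genes with a symbol. RRAGA, described above, was nearest to DDIT4 (0.0233). CHMP1B (an ESCRT-III subunit, 0.0376), IDH2 (mitochondrial isocitrate dehydrogenase, 0.0381), RPS6KL1 (0.0386) and TPGS2 (0.0407) followed. Nearest to SESN2 were TSPYL2 (0.0566), NRDE2 (0.0592), the immediate early gene IER5 (0.0597), JUN (0.0634), which encodes an AP-1 subunit, and ZNF143 (0.0635). The likeness is a description over 6 libraries that share the treatment, and any gene with a group difference of similar size can rank high.

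**Figure D5:**
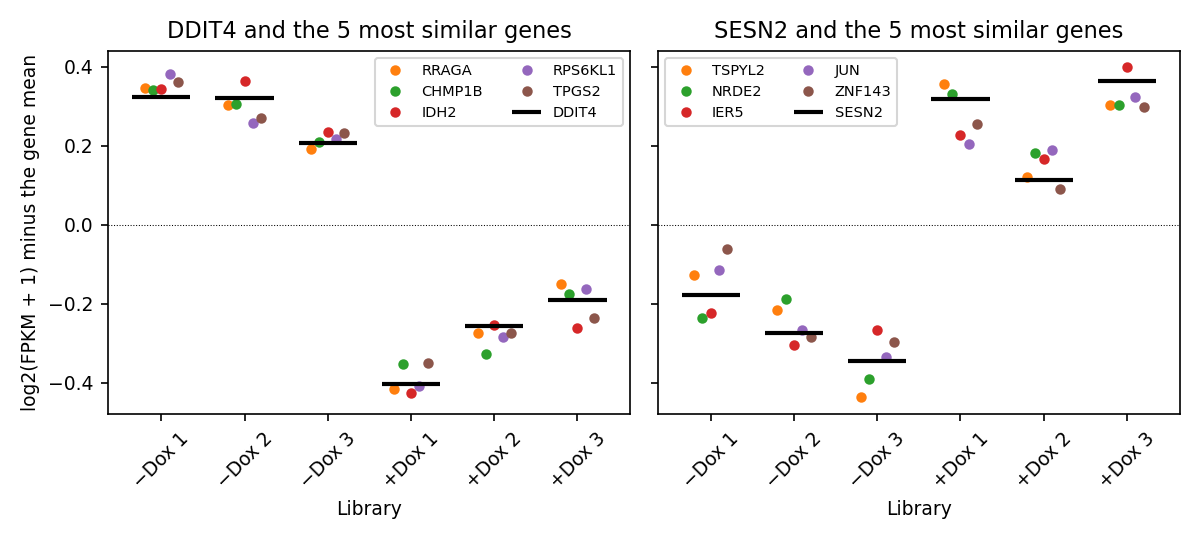
Log2(FPKM + 1) minus the mean of the gene in each library (−Dox without, +Dox with doxycycline) for DDIT4 (left, black bars) and SESN2 (right, black bars) and the 5 most similar genes of each (points). RRAGA lies within 0.0233 of DDIT4 in root mean square.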

How the data were processed

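The 6 libraries were made from TRIzol-extracted total RNA of HCT116 cells, per the labels' protocols. The authors deposited 1 FPKM value per gene and library. The unit was read from the values, since the header names none: they were not whole, their sums differed between libraries, and values of single-exon genes longer than 1000 bases clustered at multiples of what 1 fragment would give for that length, which gave the depth estimate. Only 52.1% to 57.8% of such low values lay within 0.1 of a whole fragment, and 5345 of the 157279 values above 0 were under 1e-04, so the depth is approximate. For a transcript of 1 kb, 3 fragments would then equal 0.166 to 0.217 FPKM (counting error only). Bowtie, BWA, STAR, Cufflinks, RSEM and kallisto and the build hg19 are named per the submitters' processing notes, without roles. The loci were those of GRCh38 counted from 0, and are given counted from 1. Of the 60643 rows, 39331 had a versioned identifier found in GENCODE 29, and 39321 of those matched its locus. The start or end of SESN2, DDIT4, DEPTOR, TSC2, NPRL2 and CAPG differed from that in GENCODE 29.

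The 14475 genes that reached 1 FPKM in 3 or more libraries entered a limma fit (version 3.58.1, R 4.3.3) of log2(FPKM + 1) (trended, robust, two-sided, group as the only term, Benjamini-Hochberg over all tested genes, threshold 0.05). The fit was tested on simulated data. Single values were compared by exact permutation. Named genes were the 9 inhibitors, CAPG, up to 4 called genes of each list (up to 2 where none passed) and the 5 most similar genes of SESN2 and DDIT4; CASTOR1, TXNIP, NPRL3, ATF4, KRT8 and further markers were added after their values were seen. The genes and lists were chosen with earlier results of these data known. Mitochondrially encoded genes were also listed (2 of 9 called higher, MT-ND1 and MT-ND2, and 0 lower); the higher count was 0 without any 1 untreated replicate or treated replicate 2, 1 without treated replicate 1, and 0 with a lower or no filter or without trend and robust moderation, and 1 gene was called lower under equal sums and quantile normalization. KICS2 was matched through its older symbol. Alternatives changed the filter, pseudocount, scaling, moderation, block and libraries.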

Additional observations from a re-analysis of the deposited data

How the results depend on the processing

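CAPG kept its call and direction in all alternatives tried, and DDIT4 and DEPTOR each in 14 of 15. Genes called higher and lower in all numbered 53 and 100 with no filter beyond a value above 0, 313 and 460 with a filter of 0.1 FPKM, and 354 higher without trend and robust moderation; with 1 library left out they ranged from 76 to 412 higher and 147 to 588 lower. Among the 9 inhibitors, 0 were called higher and 1 lower with no filter (SESN2 adjusted p = 0.0816, DDIT4 0.0506), and with 1 library left out 0 to 1 were higher and 2 lower. In the 7 pathway lists 0 and 0 were called with no filter, and with 1 library left out 1 to 2 higher and 0 to 4 lower. The sign of TSC1 turned under equal sums (-0.010) and ranged from -0.0074 to 0.12 with 1 library left out; that of TSC2 turned under equal sums (-0.027) and ranged from -0.16 to 0.19. The cause was not tested. Equal sums moved the median of all tested genes to -0.05.

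The replicate numbers gave no sign of pairing the libraries. Deviations from the group means of same-numbered libraries correlated at -0.04, 0.01 and -0.02 across genes. No library correlated best with its own number. With the replicate block, 69 genes were called higher and 142 lower in all, 0 and 1 of the inhibitors (SESN2 adjusted p = 0.0705, DDIT4 0.0466, DEPTOR 0.0529), and 1 and 0 in the pathway lists.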
